A study of Homo sapiens with 2 samples.

Results

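Chemokines are small secreted proteins that steer the migration of leukocytes through receptors on the cell surface, and interleukins are secreted proteins through which leukocytes and the tissues around them signal to each other. Most of these genes are silent or weakly expressed in resting cells and are switched on by infection, injury or contact with antigen, many of them through the transcription factors NF-kB, AP-1, IRF and STAT. H1 is an established line of human embryonic stem cells, which are pluripotent cells derived from an embryo and are not cells of the immune system. The genes described here are the protein-coding genes of GENCODE release 44 whose symbol begins with CCL or CXCL and a digit, or is IL followed by digits and at most 1 letter A to F. There were 79 of them among 20015 protein-coding genes: 27 CCL genes, 14 CXCL genes and 38 IL genes. The choice rests on names and used no measured value, but it was made with earlier results of these data known.

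Open chromatin had been mapped by ATAC-seq, which marks DNA that a transposase can reach, in 2 samples of untreated H1 cells that form 1 group and share 1 peak list. The labels name no genotype change, no treatment and no time point, and leave it unsaid whether the samples were separate cultures. The cells had been frozen, and after thawing they were treated with DNase I and purified on Ficoll before the Omni-ATAC procedure. The list held 160327 distinct regions with 236878 summits on the GRCh38 build. A region counted as lying at a gene when any of its summits was within 1 kb of any annotated transcript start of that gene. The fold is the authors' enrichment of a summit over a background that the sources used here do not describe, and it serves only to describe and rank regions within the list. No value was given per sample, so none of the values below has a replicate error and no test over samples could be made; intervals are 95% exact binomial (Clopper-Pearson) intervals and cover counting error only. All 12 pluripotency markers that were looked up, POU5F1, SOX2 and NANOG among them, had a region at a start, against 2 of 10 blood markers and 7 of 8 fibroblast markers. The share over all protein-coding genes was 81.2%, which the intervals of the pluripotency list (73.5% to 100%) and the fibroblast list (47.3% to 99.7%) include. The interval of the blood list, 2.52% to 55.6%, lay below it. The starts of the blood list were poor in CpG, with a median ratio of observed to expected CpG, described below, of 0.207. In the CpG bin of that ratio 43.0% of all protein-coding genes had a region, a share within the blood interval.

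Of the 79 chemokine and interleukin genes, 31 had an accessible region at a start (39.2%, interval 28.4% to 50.9%), against 81.2% of all protein-coding genes. The share was 22.2% for CCL genes (6 of 27), 57.1% for CXCL genes (8 of 14) and 44.7% for IL genes (17 of 38). Where a region was present, its fold was mostly below the median of other genes. The median of the highest fold at a start was 7.99 over the 31 members and 9.71 over all protein-coding genes with a region, and 10 of the 31 lay at or above 9.71. Folds of the members ran between 2.59 at IL21 and 14.2 at IL12A.

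**Figure D1:**
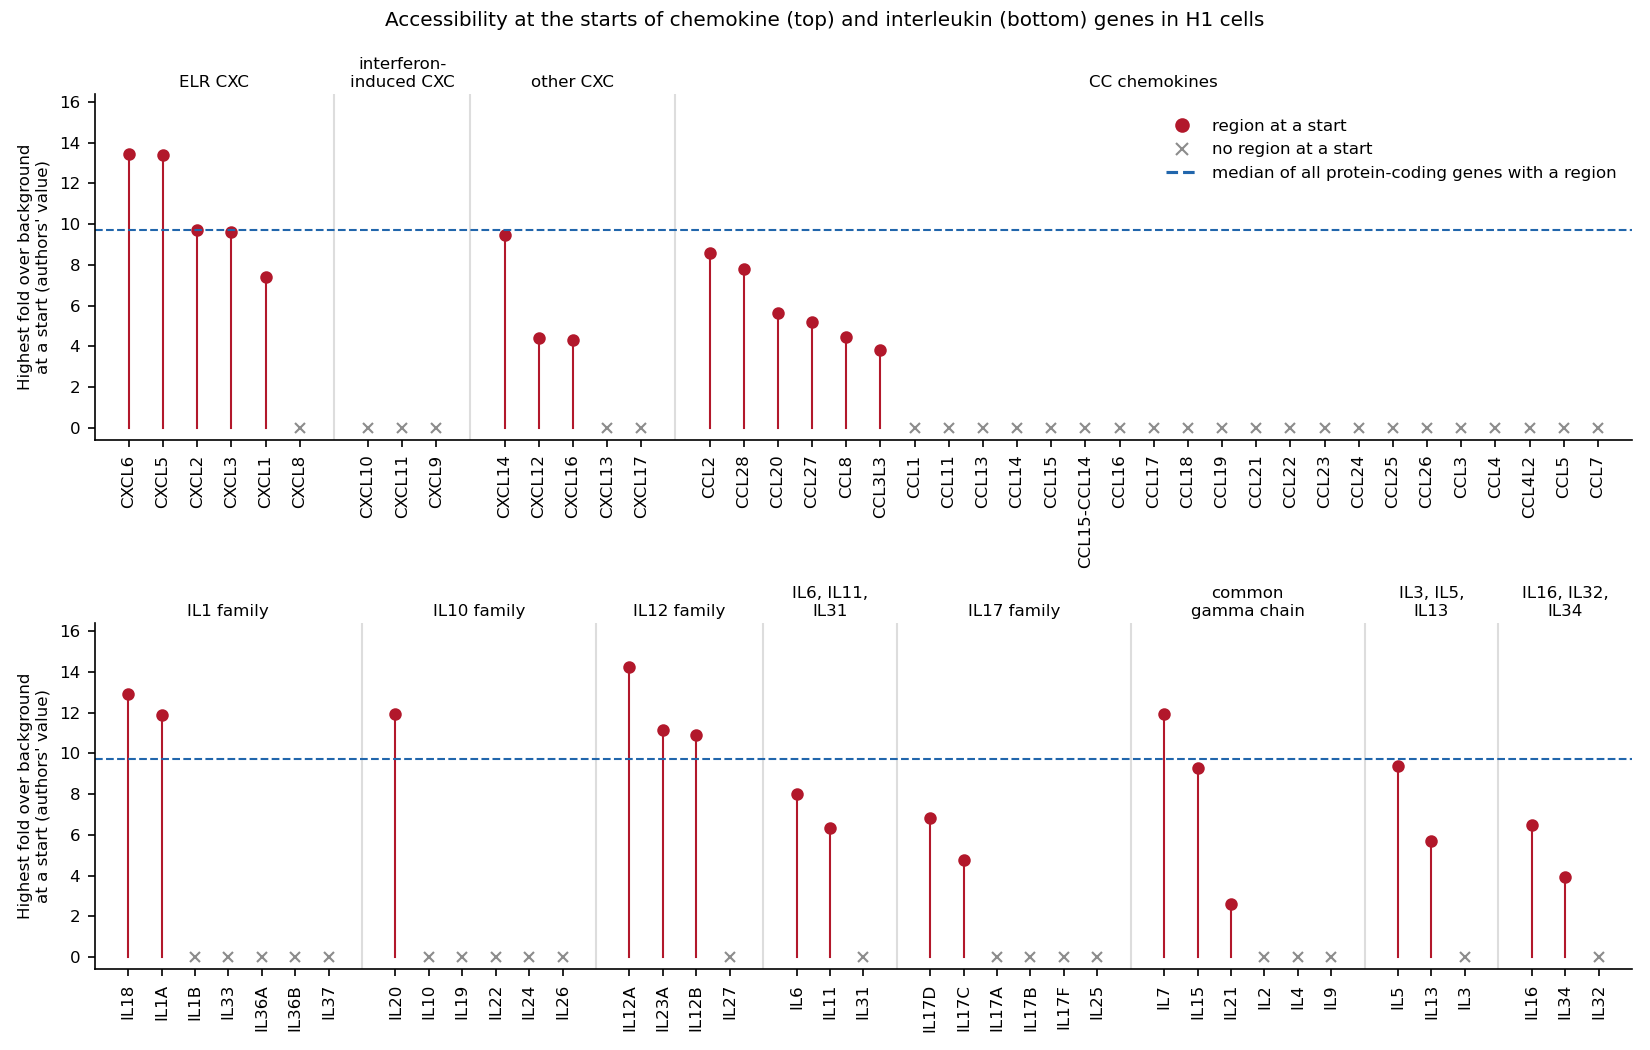
Highest fold over background (vertical axis, the authors' value, linear scale) at any annotated start of each chemokine gene (top) and interleukin gene (bottom), by subgroup; crosses on the zero line are genes with no region at a start, and the dashed line is the median over all protein-coding genes with a region, 9.71. Among the CXC chemokines under the naming rule that attract neutrophils 5 of 6 have a region, while CXCL9, CXCL10 and CXCL11 and most CC chemokines have none. The share over all protein-coding genes is 81.2%.

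The neutrophil-attracting CXC chemokines carry a glutamate-leucine-arginine motif and act on the receptors CXCR1 and CXCR2. Of the 6 such genes that the naming rule takes in, 5 had a region, the highest share of the chemokine groups. Genes of this kind with other symbols are not counted here. That share (83.3%, interval 35.9% to 99.6%) was close to the 81.2% of all protein-coding genes. CXCL6 had the highest fold of any chemokine gene, 13.5, at chr4:73836291-73837206, with its strongest summit 127 bp upstream of the nearest start. CXCL5 followed with 13.4 at chr4:73998073-73999058, with the summit 217 bp upstream and 4 summits in the region. These folds stood above the median of 9.71 for all genes with a region. CXCL2 had a fold of 9.72 at chr4:74098606-74099692, 138 bp upstream of its nearest start, and CXCL3 had 9.62 at chr4:74038106-74039320, 4 bp downstream of the nearest start and 114 bp upstream of the start of the Ensembl canonical transcript. CXCL1 had 7.39 at chr4:73868833-73869983, with 5 summits, the strongest 74 bp downstream of the start. CXCL8, the best known neutrophil attractant of the group, was the exception among the 6 and had no region at its start. The nearest summit of any region lay 10370 bp away with a fold of 3.41.

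The sequences under the strongest summits of these genes are shown because they are the most accessible chemokine starts. Each is the summit with 50 bp on either side, on GRCh38, 5′ to 3′ on the gene's strand, and capitals mark a match to a GC box (GGGCGGG), to C/EBP (TTGCNNAA) or to NF-kB, each searched on both strands.
CXCL6 (chr4:73836463-73836563, plus strand): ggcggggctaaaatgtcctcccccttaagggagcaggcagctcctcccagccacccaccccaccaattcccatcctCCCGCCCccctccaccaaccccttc
CXCL5 (chr4:73998844-73998944, minus strand): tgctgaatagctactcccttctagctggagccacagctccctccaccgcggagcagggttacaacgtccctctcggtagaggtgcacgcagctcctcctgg
CXCL2 (chr4:74099284-74099384, minus strand): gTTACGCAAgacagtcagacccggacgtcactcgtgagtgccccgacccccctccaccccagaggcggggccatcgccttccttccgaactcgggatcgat
CXCL3 (chr4:74038753-74038853, minus strand): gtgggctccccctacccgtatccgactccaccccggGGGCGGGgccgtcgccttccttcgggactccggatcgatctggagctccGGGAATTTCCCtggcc
The window of CXCL6 held a GC box, that of CXCL3 a GC box and an NF-kB match, that of CXCL2 a C/EBP match, and that of CXCL5 none of the 15 motifs searched. G+C content of these windows was between 61.4% at CXCL5 and 70.3% at CXCL3.

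CXCL1, CXCL2 and CXCL3 are close copies of one another, so their start sites are set beside that of CXCL8, which lies in the same cluster. The stretch upstream of the canonical start is shown, 150 bp for the first 3 and the bases 150 to 21 before the start for CXCL8, so that at most 30 of the bases shown are annotated as untranslated. Capitals mark matches to NF-kB, to a TATA box (TATAAA) and to AP-1 (TGANTCA).
CXCL1 (chr4:73869243-73869392, plus strand): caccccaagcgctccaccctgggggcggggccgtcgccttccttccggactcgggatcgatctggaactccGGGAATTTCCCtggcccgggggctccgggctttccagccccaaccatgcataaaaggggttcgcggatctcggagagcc
CXCL2 (chr4:74099196-74099345, minus strand): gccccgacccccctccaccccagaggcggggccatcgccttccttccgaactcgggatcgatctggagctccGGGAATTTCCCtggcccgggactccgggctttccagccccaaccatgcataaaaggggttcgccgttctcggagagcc
CXCL3 (chr4:74038690-74038839, minus strand): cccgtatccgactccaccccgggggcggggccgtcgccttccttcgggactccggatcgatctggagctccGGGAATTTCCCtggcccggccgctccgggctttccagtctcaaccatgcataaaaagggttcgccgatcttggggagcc
CXCL8 (chr4:73740419-73740548, plus strand): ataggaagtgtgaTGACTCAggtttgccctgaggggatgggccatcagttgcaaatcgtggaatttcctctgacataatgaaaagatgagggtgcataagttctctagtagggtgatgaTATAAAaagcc
CXCL1 and CXCL2 were identical in 88.7% of aligned positions, CXCL1 and CXCL3 in 88.1%, and CXCL2 and CXCL3 in 86.1%, while each of them matched CXCL8 in between 41.4% and 42.9%. The alignments allowed gaps, and the share that unrelated sequences would reach was not computed. The same NF-kB stretch stood in all 3 copies, with overlapping matches on both strands. Its first base lay 79 bp before the start in CXCL1 and CXCL3 and 78 bp before it in CXCL2. The CXCL8 stretch held a TATA box whose first base lay 31 bp before the start and an AP-1 match at 137 bp, and the NF-kB consensus as searched was not in it, which says only that those letters are not in the window. The copies are similar enough that some reads could come from any of them, and whether this changed their folds was not tested.

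The other CXC chemokines divided. CXCL14, which is made by epithelia, had a fold of 9.48 at chr5:135578028-135579477, a region that is also at a start of SLC25A48. CXCL12, the ligand of CXCR4 that guides and retains stem and progenitor cells, had 4.42, 52 bp upstream of its start, and CXCL16, which is made as a membrane-bound protein, had 4.31 at a region shared with ZMYND15. CXCL13, which attracts B cells, and CXCL17 had no region at a start. None of CXCL9, CXCL10 and CXCL11, the interferon-induced ligands of CXCR3 that attract activated T cells, had a region at a start; a share of up to 70.8% is within the interval for 0 of 3. Their nearest summits lay 3405 bp from CXCL9, 7004 bp from CXCL10 and 12548 bp from CXCL11.

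Among the CC chemokines, which act mainly on monocytes, lymphocytes and eosinophils, 6 of 27 had a region at a start. CCL2, the main attractant of monocytes, had the highest fold, 8.59, at chr17:34254630-34255007, with the summit 409 bp upstream of the nearest start, and a neighbouring region with a summit 57 bp upstream and a fold of 8.52. CCL28, a chemokine of mucosal epithelia, had 7.80 at chr5:43396832-43397345, 44 bp downstream of an annotated start but 15171 bp downstream of the canonical one. The rest were lower: CCL20, the ligand of CCR6, had 5.63, CCL27, a skin chemokine, had 5.21, CCL8 had 4.47 and CCL3L3 had 3.83. All 6 folds lay below the median of all genes with a region.

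No region lay at a start of the remaining 21 CC genes: CCL1, CCL3, CCL4, CCL4L2, CCL5, CCL7, CCL11, CCL13, CCL14, CCL15, CCL15-CCL14, CCL16, CCL17, CCL18, CCL19, CCL21, CCL22, CCL23, CCL24, CCL25 and CCL26. They include the eosinophil attractants CCL11, CCL24 and CCL26, the lymphoid-organ chemokines CCL19 and CCL21, and the inflammatory chemokines CCL3, CCL4 and CCL5. For CCL5 the nearest summit was 30723 bp from the start, and for CCL23 it was 44101 bp away. CCL3L3 and CCL4L2 are near-identical copies of CCL3 and CCL4, so reads may not be assignable to 1 copy, and CCL15-CCL14 is a readthrough gene that overlaps CCL15 and CCL14.

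A few genes fell close to the 1 kb limit. The 2 members just inside it, by the distance of their nearest summit, were CCL3L3 at 624 bp and CCL8 at 725 bp. Just outside were CCL26 at 1020 bp with a fold of 3.20, CCL25 at 1241 bp with 2.35, IL27 at 1393 bp with 8.63 and CCL1 at 1548 bp with 10.0.

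Among the interleukins, the IL12 family had a region at 3 of 4 genes and held the highest fold of all members. The interval of that share, 19.4% to 99.4%, includes the 81.2% of all protein-coding genes. The family's cytokines are pairs of subunits that direct T cell responses: IL12A pairs with IL12B to form IL12, and IL23A pairs with the same IL12B to form IL23. IL12A had a fold of 14.2 at chr3:159988483-159989421, with the strongest of 3 summits 126 bp upstream of the canonical start. IL23A had 11.1 at chr12:56333343-56334661, but this summit was 4810 bp before the canonical IL23A start and 100 bp before another annotated one, and the region is also at a start of PAN2, a gene of mRNA deadenylation. IL12B had 10.9 at chr5:159331203-159332056, 648 bp upstream of the nearest annotated start and 1024 bp upstream of the canonical one. A noncoding gene also starts within 1 kb of this summit. IL27 had no region at a start.

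The IL10 family, which includes the anti-inflammatory cytokine IL10 and several cytokines that act on epithelia, had a region at 1 of 6 genes. IL20, which acts on keratinocytes, had a fold of 11.9 at chr1:206864959-206865693, with the strongest summit 521 bp upstream of the start. IL10, IL19, IL22, IL24 and IL26 had none. The windows of the 4 interleukins below are shown as those with the highest folds, IL7 apart, among windows with at most 30 bases of annotated untranslated sequence, in the same way as for the chemokines; capitals mark a GC box in IL12A and a match to CTCF, a protein that binds insulators and loop anchors, in IL20.
IL12A (chr3:159988659-159988759, plus strand): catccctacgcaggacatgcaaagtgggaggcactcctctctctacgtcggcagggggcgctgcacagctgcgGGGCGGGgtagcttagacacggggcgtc
IL23A (chr12:56334024-56334124, plus strand): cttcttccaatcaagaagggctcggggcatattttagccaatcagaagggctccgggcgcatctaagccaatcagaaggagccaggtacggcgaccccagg
IL12B (chr5:159331461-159331561, minus strand): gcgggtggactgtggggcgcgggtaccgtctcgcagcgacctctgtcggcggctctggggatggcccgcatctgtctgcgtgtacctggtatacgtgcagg
IL20 (chr1:206865052-206865152, plus strand): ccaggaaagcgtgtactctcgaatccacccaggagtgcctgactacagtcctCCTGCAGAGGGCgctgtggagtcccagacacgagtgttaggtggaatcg
IL23A and IL12B had none of the 15 motifs in these windows, and the G+C content of the 4 windows was between 56.4% at IL23A and 68.3% at IL12B.

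The IL1 family, many of whose members are alarm signals of inflamed or damaged tissue, had a region at 2 of 7 genes. IL18, which induces interferon gamma in lymphocytes, had a fold of 12.9 at chr11:112163867-112164245, in a narrow region with 1 summit 15 bp upstream of the nearest start. IL1A had 11.9 at chr2:112784166-112784630, also with 1 summit, 1 bp from its only annotated start. Both lay in the upper part of the members' range. IL1B, IL33, IL36A, IL36B and IL37 had none; the nearest summit to IL1B was 12271 bp away.

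Of the interleukins that signal through the common gamma chain of the receptor, 3 of 6 had a region. IL7, which supports early lymphocytes and is made by stromal cells, had a fold of 11.9 at chr8:78804258-78805654, with 5 summits, the strongest 309 bp downstream of the nearest start. IL15, which supports natural killer and memory T cells and is also made outside the immune system, had 9.26 at chr4:141635990-141637422, 106 bp upstream of the nearest start. IL21, a product of helper T cells, had the lowest fold of any member with a region, 2.59, at a start of IL21-AS1. The T cell cytokines IL2, IL4 and IL9 had none.

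The 3 genes IL3, IL5 and IL13 act on myeloid cells, eosinophils and epithelia and lie near IL4. IL5 had a fold of 9.38 at chr5:132556609-132557775, but the summit was 13348 bp before its canonical start, 32 bp before another annotated start of IL5, and was also within 1 kb of a start of RAD50, a DNA repair gene. IL13 had 5.68, at a summit 2003 bp upstream of its canonical start and 93 bp upstream of another annotated one, where TH2LCRR, a noncoding gene, also starts. IL3 had none.

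IL6, the main inducer of the acute phase response, had a fold of 7.99 at chr7:22726246-22726717, 635 bp upstream of the canonical start. A weaker summit of another region lay 114 bp downstream of a start of IL6, with a fold of 3.78. IL11, a relative that signals through the same receptor subunit, had 6.32, 351 bp downstream of its start. IL31, which causes itch, had none.

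In the IL17 family, whose members act on epithelia, IL17D had a fold of 6.81 and IL17C, made by epithelial cells, had 4.79, while IL17A, IL17B, IL17F and IL25 had none. IL16, a chemoattractant for CD4+ cells, had 6.48 at chr15:81182802-81183458, 13569 bp upstream of its canonical start. IL34, a ligand of the receptor of macrophage colony stimulating factor, had 3.92 at a summit 7404 bp downstream of its canonical start, and IL32 had none.

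For some members the strongest summit lay over 1 kb from the canonical start, and which start the cells use was not measured. Of the 31 members with a region, 22 had the strongest summit within 1 kb of the canonical start, and 9 of these had it within 200 bp. The other 9 (29.0%) had it over 1 kb away, against 16.8% of all protein-coding genes with a region. The strongest summit was upstream of the nearest annotated start in 19 members and downstream in 12, and 23 had more than 1 summit at their starts. For 4 members, CXCL14, CXCL16, IL5 and IL23A, the summit was also within 1 kb of a start of another protein-coding gene. The members have fewer annotated starts, with a median of 2 against 5 for all protein-coding genes. The strongest regions were also narrower, with a median width of 867 bp against 1074 bp.

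The rest of the description turns on what the members share that their names did not fix, first of all sequence composition. Promoters rich in CpG dinucleotides are mostly open in every cell type, while promoters poor in CpG are mostly open only where they are used. The ratio of observed to expected CpG from 500 bp before to 500 bp after the canonical start had a median of 0.228 for the members, against 0.725 for all protein-coding genes. When all protein-coding genes were put in order of this ratio and divided into 10 equal bins, 68 of the 79 members fell in the 3 poorest bins. In those bins 20 of 68 members had a region (29.4%), against 44.7% of all protein-coding genes. In the poorest bin the count was 7 of 31 members (22.6%), against 31.6% of all genes there. In bin 2 it was 6 of 24 (25.0%), against 43.0%, and in bin 3 it was 7 of 13 (53.8%), against 59.4%.

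All 11 members in the 7 richer bins had a region: CXCL1, CXCL2, CXCL3, CXCL5, CXCL12, CXCL14, CXCL16, IL7, IL12A, IL15 and IL17D. Of these, 8 were in bins 4 to 7, where 95.5% of all protein-coding genes had a region, and 3 in bins 8 to 10, where 98.7% did. If each member had the share of its own bin, 38.4 members would have a region, and 31 had one. The CXCL genes with a region were thus mostly genes with CpG-rich starts, and CXCL6, in bin 3, was the only one of the 8 in the 3 poorest bins. The 6 CCL genes with a region were in the 2 poorest bins, as were the 21 without.

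**Figure D2:**
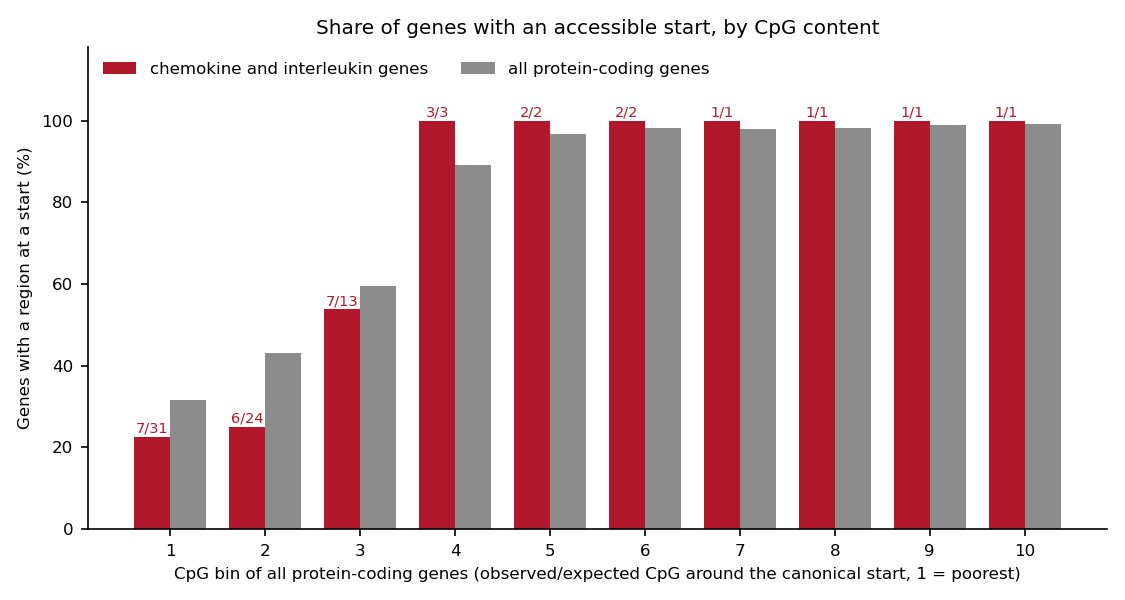
Share of genes with a region at a start (vertical axis, percent, from 0) by bin of all protein-coding genes in order of observed to expected CpG around the canonical start (horizontal axis, 1 is the poorest), for the chemokine and interleukin genes (red, with the number with a region over the number in the bin) and all protein-coding genes (grey). In bins 1 to 3 the members' bars stand below the grey ones, at 22.6%, 25.0% and 53.8% against 31.6%, 43.0% and 59.4%, and in bins 4 to 10 every member has a region.

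Short consensus sequences of 15 transcription factor motifs were searched on both strands from 250 bp before to 50 bp after the canonical start. A match describes the sequence and does not show that a factor binds there, and motifs may overlap. The region of a member may lie at any annotated start, not only at the canonical one that was searched. CCL27, CCL28, IL5, IL13, IL16, IL21 and IL34 count as members with a region but had none at the canonical start. A TATA box (TATAAA), which places the start of transcription at many inducible genes, was present at 30 of 79 members (37.97%), against 9.71% of all protein-coding genes. It was mostly a feature of the members without a region, 24 of 48 (50.0%), and was found at 6 of 31 members with one (19.4%). All protein-coding genes showed the same order, 6.31% with a region and 24.4% without. In the 3 poorest CpG bins the shares were 44.1% of members and 20.8% of all protein-coding genes.

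NF-kB matches had the opposite arrangement. They were present at 17 of 79 members (21.5%), against 6.56% of all protein-coding genes, and at 12 of the 31 members with a region (38.7%), against 5 of the 48 without (10.4%). The 12 were CCL20, CXCL1, CXCL2, CXCL3, CXCL5, CXCL6, CXCL16, IL6, IL12A, IL15, IL17C and IL23A, and the 5 were CCL5, CCL11, CCL22, CXCL10 and CXCL11. Over all protein-coding genes the shares lay closer together, at 7.0% with a region and 4.65% without. CXCL1, CXCL2 and CXCL3 are close copies and count as 3 of the 12. In the 3 poorest CpG bins, 5 of 20 members with a region had a match, against 6.75% of all protein-coding genes with a region there. Of all members in those bins, 10 of 68 had one (14.7%), against 5.53% of all protein-coding genes. With a window that began 500 bp before the start, the counts were 12 of 31 members with a region and 9 of 48 without (18.8%). The share of all protein-coding genes in that window was 11.6%. Within 50 bp of the strongest summit, only 1 of the 31 members with a region had a match, CXCL3 (3.23%). Of the strongest summits at starts of all protein-coding genes, 1.92% had one. In a wider window around the summit the count was 5 of 31. The matches near the canonical starts of members with a region thus mostly lay more than 50 bp from the strongest summit.

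Other motifs of inducible genes were also more frequent at members than at all protein-coding genes. An IRF match (GAAANNGAA) was present at 16 members (20.3%), against 7.04% of all protein-coding genes, at 8 of the 31 members with a region (25.8%) and 8 of the 48 without (16.7%). AP-1 (TGANTCA) was present at 14 members (17.7%), against 5.43%, STAT (TTCNNNGAA) at 14, against 6.49%, and C/EBP (TTGCNNAA) at 14, against 8.10%. These 4 motifs are also more frequent at CpG-poor starts in general, where the shares of all protein-coding genes in the 3 poorest bins were 10.96% for IRF, 10.9% for AP-1, 9.49% for STAT and 13.1% for C/EBP. The GC box, a site of Sp1 in CpG-rich promoters, was present at 15 members (19.0%), 11 with a region and 4 without, against 47.1% of all protein-coding genes. In the 3 poorest bins it was present at 8 of 68 members (11.8%), against 14.1% of all protein-coding genes. The ETS motif (CCGGAAGT) was present at 0 members, against 6.14% of all protein-coding genes and 0.583% of those in the 3 poorest bins.

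Fewer members had a match for the remaining motifs: 7 for NFAT (TGGAAAA), 5 for the E box (CACGTG), 4 for PU.1 (GAGGAAGT), 3 each for the octamer (ATGCAAAT) and TEAD (GGAATGT), 2 for SOX (ACAATGG) and 1 for CTCF. With the window that began 500 bp before the start, there were 13 for NFAT, 8 for PU.1, 5 each for the octamer and TEAD, and 2 for CTCF. Shares of all protein-coding genes in that window were 11.1% for NFAT, 3.88% for PU.1 and 2.82% for the octamer. For TEAD and CTCF they were 5.01% and 6.83%. In the shorter window, shares of all protein-coding genes were 4.96% for NFAT, 8.76% for the E box, 2.54% for PU.1, 1.61% for the octamer, 2.38% for TEAD, 2.22% for SOX and 4.77% for CTCF.

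**Figure D3:**
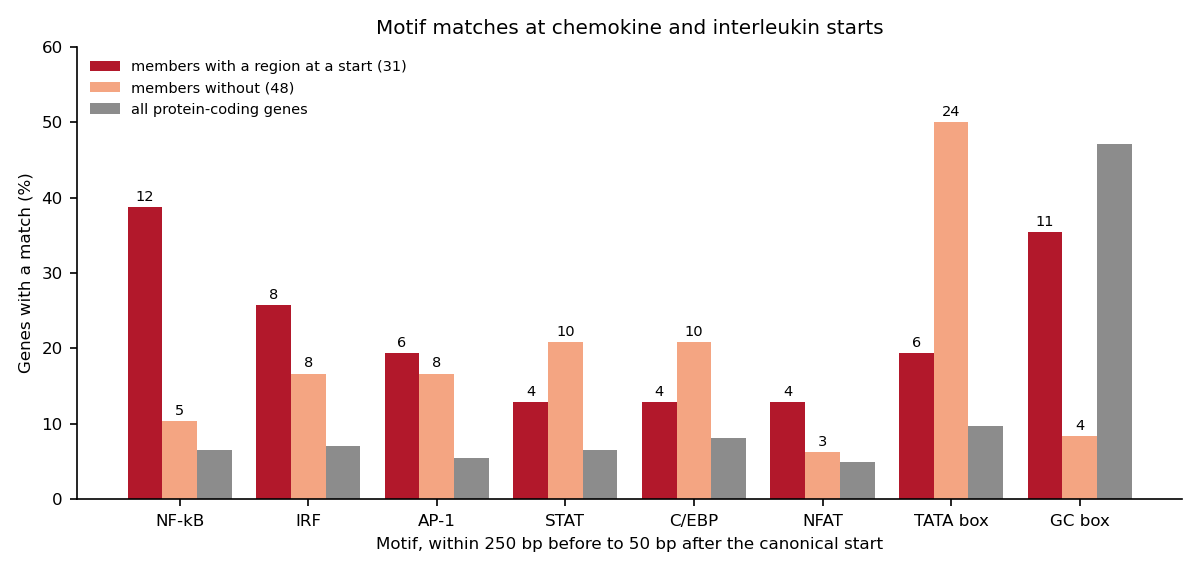
Share of genes with a motif match from 250 bp before to 50 bp after the canonical start (vertical axis, percent, from 0) for 8 motifs (horizontal axis), in the 31 members with a region at a start (red), the 48 members without (orange) and all protein-coding genes (grey); numbers above the bars are genes with a match. NF-kB matches are at 12 of the 31 and 5 of the 48, and TATA boxes at 6 of the 31 and 24 of the 48. The region may be at any annotated start, not only at the canonical one searched.

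Chemokine and interleukin genes lie in clusters that arose by duplication, and 8 clusters held 3 or more members less than 500 kb apart. Regions were counted over each cluster with 50 kb on either side and set beside the 5.19 regions per 100 kb of the whole list. The cluster of CXCL8, CXCL6, CXCL1, CXCL5, CXCL3 and CXCL2 on chromosome 4 had 35 regions, or 7.63 per 100 kb. The cluster of CXCL9, CXCL10 and CXCL11 further along the same chromosome had 7.14 per 100 kb, with 0 of 3 starts accessible, so that the regions there lay between and beyond the genes. The strongest had a fold of 17.0, 51290 bp upstream of the CXCL11 start within the neighbouring gene ART3.

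Both large CC clusters on chromosome 17 held few regions. The cluster of CCL2, CCL7, CCL11, CCL8, CCL13 and CCL1 had 5 regions, or 2.40 per 100 kb, and 3 of the 5 were at CCL2 and CCL8. The cluster of CCL5, CCL16, CCL14, CCL15-CCL14, CCL15, CCL23, CCL18, CCL3, CCL4, CCL3L3 and CCL4L2 had 10 regions, or 2.27 per 100 kb, over 441 kb, and 1 of 11 members had a region at a start. The strongest of the 10, with a fold of 13.2, was at a start of RDM1, which is no chemokine gene.

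**Figure D4:**
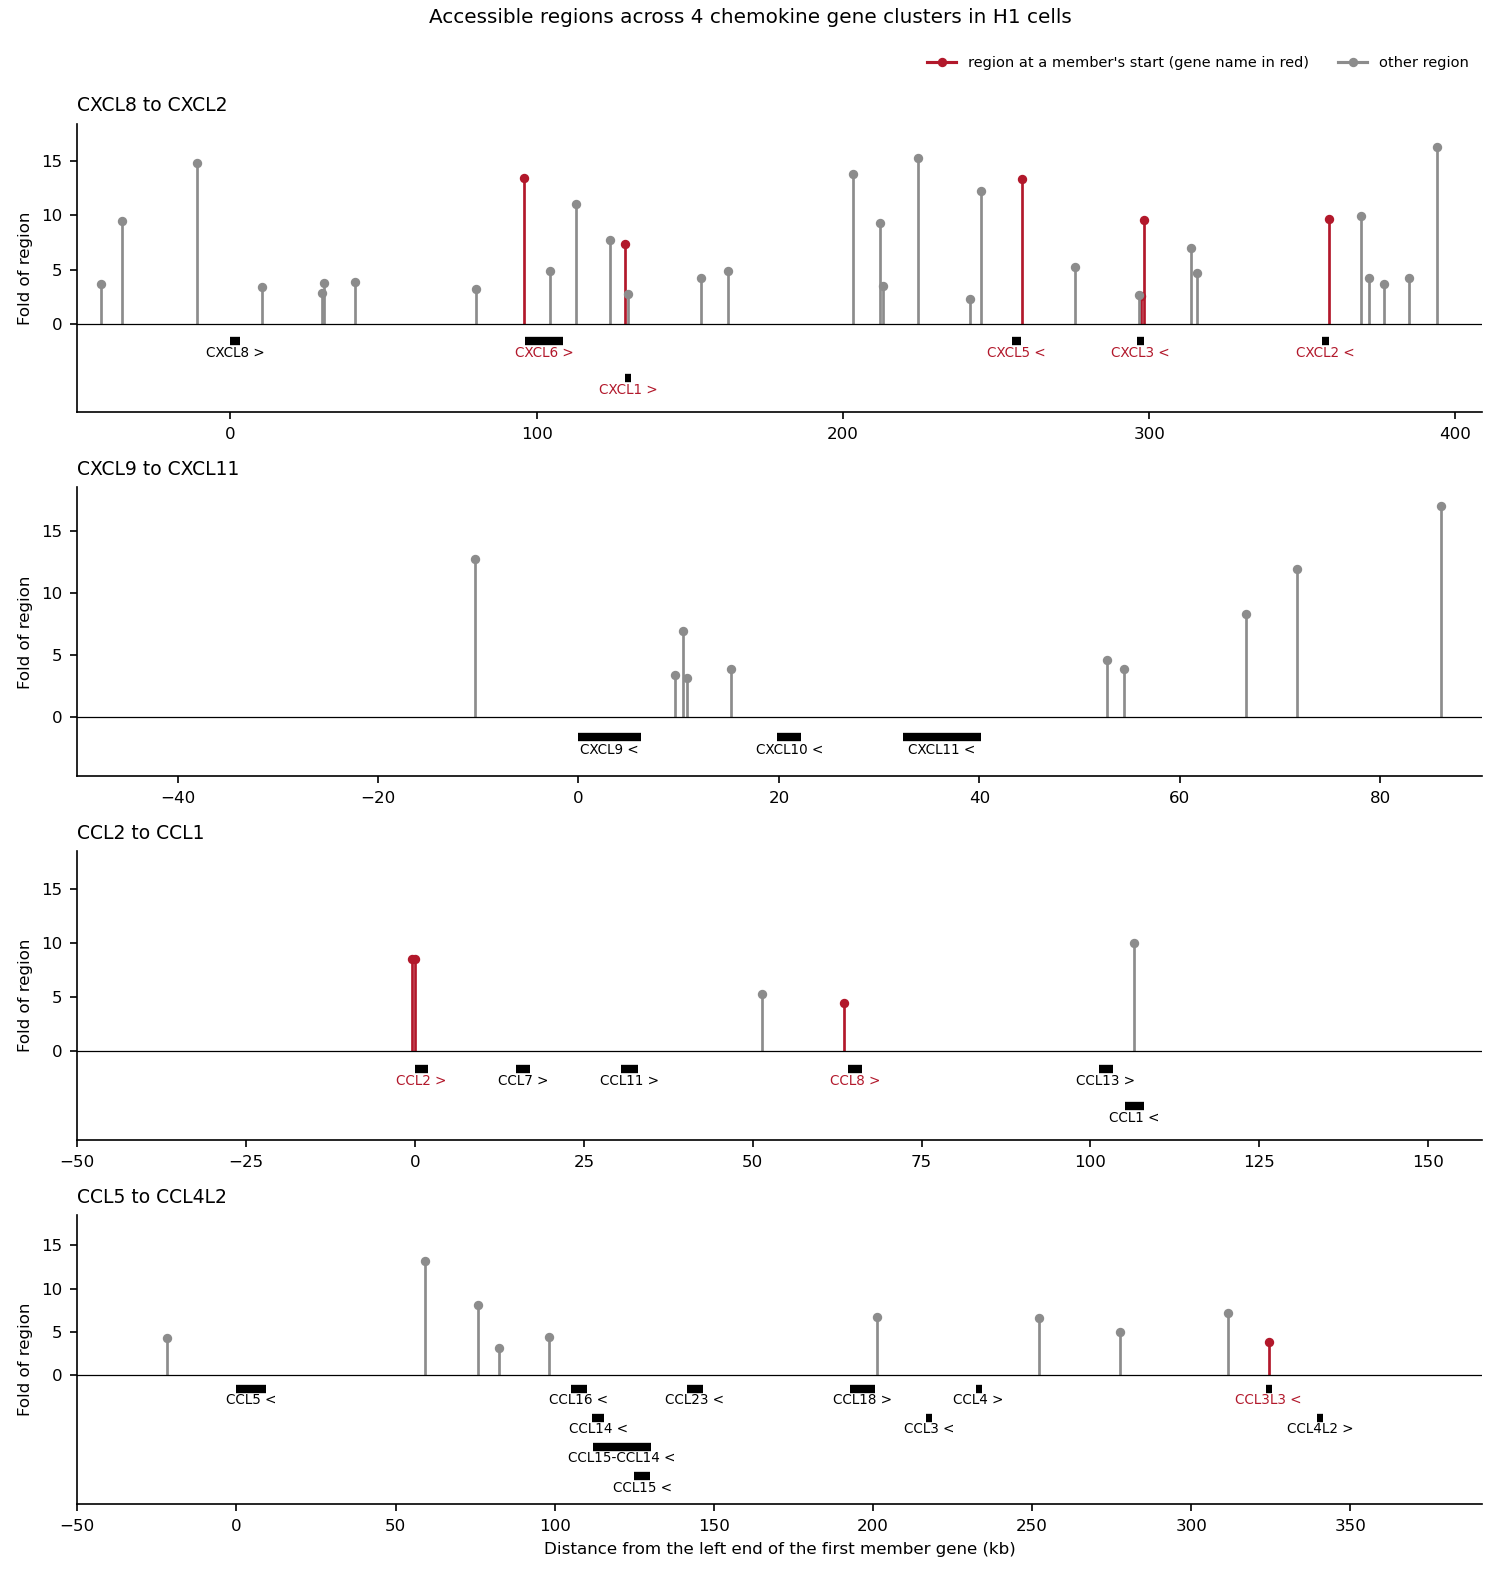
Fold of each region (vertical axis, linear scale) against distance from the left end of the first member gene (horizontal axis, kb) over 4 chemokine clusters with 50 kb on either side; red stems are regions at a start of a member, grey stems other regions, and black bars the genes, with arrowheads for the strand and red names for members with a region. Stems are dense across the clusters of CXCL8 to CXCL2 and CXCL9 to CXCL11 (7.63 and 7.14 regions per 100 kb) and sparse across those of CCL2 to CCL1 and CCL5 to CCL4L2 (2.40 and 2.27).

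The remaining clusters ran between 4.22 and 8.88 regions per 100 kb. That of IL10, IL19, IL20 and IL24 had 8.88 with 1 of 4 starts accessible, that of CCL27, CCL19 and CCL21 had 8.77 with 1 of 3, and that of IL3, IL5, IL13 and IL4 had 6.65 with 2 of 4. The cluster of IL1A, IL1B, IL37, IL36A and IL36B had 4.22 with 1 of 5. For 3 clusters the side of the whole list's rate depended on the setting. With no flank, IL10 to IL24 had 5.13 per 100 kb against 5.19. With members less than 250 kb apart, IL5, IL13 and IL4 without IL3 had 3.32. With regions at or above the median −log10 p, IL1A to IL36B had 3.17 against 2.60. Clusters with similar rates thus held different numbers of accessible starts, as with 5 of 6 for CXCL8 to CXCL2 and 0 of 3 for CXCL9 to CXCL11.

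Away from the starts, 384 further regions had a summit within 50 kb of a member. Every member had at least 1 (79 of 79), against 97.4% of all protein-coding genes. The median number was 6 for the members, with a range of 1 to 19, and 8 for all protein-coding genes. Counted from the canonical start instead of the gene body, the median was 5 for both. The members are shorter, with a median length of 6.70 kb against 27.5 kb for all protein-coding genes. Per 100 kb searched, the median was 4.94 for members and 5.69 for all protein-coding genes. It was 2.94 for CCL, 6.86 for CXCL and 5.32 for IL genes. Of the 384 regions, 81 were at a start of another protein-coding gene, 269 were at no annotated start, and 60 had the strongest summit inside a member. The median fold was 5.65, against 5.38 over all regions.

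The members with the most such regions were IL32 and IL17B with 19 each, IL19 with 14, CCL27, IL7, IL15 and IL16 with 12 each, and IL10, IL11, IL21 and CCL20 with 11 each. The strongest region beside IL17B, with a fold of 19.5, was at a start of PCYOX1L. The strongest beside IL16 was at a start of CFAP161 (fold 21.0), and that beside IL11 was at a start of TMEM150B (13.6). Neighbouring genes thus held the strongest region for these 3. For IL19 the strongest was the region at IL20 (11.9), and for IL10 it was one inside IL19 (11.04). Regions inside the gene itself were the strongest for IL7 (19.4) and IL15 (15.2), and the one inside IL7 was also at a start of another annotated gene, THAP12P7. The strongest beside CCL20 had a fold of 17.5 and lay 47347 bp upstream of its canonical start. The values were 13.0 beside CCL27, 11.7 beside IL21 and 11.2 beside IL32.

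Some members with no region at a start had a strong region close by. The region with the highest fold of the 384, 22.1, was at chr4:122450690-122451225, with its summit 5720 bp downstream of the canonical start of IL2. IL26 had a region with a fold of 20.2 inside the gene at chr12:68223096-68223654, with its summit 2516 bp downstream of the start. The strongest region near CXCL8, with a fold of 14.9 at chr4:73729604-73730080, was 10825 bp upstream of its start.

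The 269 regions at no annotated start were searched for the same 15 motifs within 50 bp of the strongest summit, a comparison chosen after other values had been seen. A CTCF match was present in 41 (15.2%), against 7.27% of the 129121 regions of the whole list at no annotated start. Matches were less frequent near members than in the whole list for the octamer (1.12% against 2.57%), TEAD (1.86% against 4.35%), IRF (0.743% against 2.64%) and the E box (0.372% against 1.16%), each with 5 or fewer matches near members. Matches were more frequent near members for SOX (4.09% against 2.64%), the TATA box (4.46% against 2.87%) and NFAT (3.72% against 2.10%). These had 11, 12 and 10 matches near members. AP-1 was at 5.95% against 4.93%, and NF-kB at 1.12% against 1.67%. The 4 regions with a CTCF match and the highest folds are shown, with the match in capitals. Their folds were 22.1 near IL2, 15.7 near CCL20, 15.3 near CXCL5 and 15.2 inside IL15.
near IL2 (chr4:122450955-122451055, plus strand): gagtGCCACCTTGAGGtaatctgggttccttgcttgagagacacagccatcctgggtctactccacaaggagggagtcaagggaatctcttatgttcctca
near CCL20 (chr2:227757323-227757423, plus strand): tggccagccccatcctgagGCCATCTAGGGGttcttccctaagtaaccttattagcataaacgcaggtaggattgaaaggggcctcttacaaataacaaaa
near CXCL5 (chr4:73965092-73965192, plus strand): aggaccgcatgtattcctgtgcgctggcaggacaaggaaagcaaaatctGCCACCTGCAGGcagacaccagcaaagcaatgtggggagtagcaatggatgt
near IL15 (chr4:141654192-141654292, plus strand): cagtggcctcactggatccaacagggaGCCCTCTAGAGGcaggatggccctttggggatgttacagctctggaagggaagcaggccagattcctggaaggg

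Receptors and signalling genes of the same pathways were looked up in lists chosen by role. At a start, 12 of 22 chemokine receptor genes (54.5%) and 27 of 41 interleukin receptor genes (65.9%) had a region, against 81.2% of all protein-coding genes. In the CpG bins of the lists' median ratios, 31.6% and 59.4% of all protein-coding genes had one. The share of chemokine receptors, above that of the members here, was below it with stronger regions only: 26 of 79 members and 5 of 22 chemokine receptors had a region at or above the list's median −log10 p, and 23 of 79 and 5 of 22 had one at or above its median fold. Among chemokine receptors the highest folds were 14.7 at ACKR2, a scavenger of CC chemokines, 7.68 at ACKR3, which binds CXCL12, and 7.66 at CXCR4, the signalling receptor for CXCL12. ACKR4, CCR2 and CCR4 had no region. Among interleukin receptors the highest folds were 17.1 at IL5RA, 15.9 at IL6ST, the subunit shared by receptors for IL6 and IL11, and 15.2 at IL1RAP, the accessory subunit of IL1 receptors. IL12RB1, IL13RA2 and IL18RAP had none.

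Of the signalling genes behind the receptors, 12 of 12 NF-kB pathway genes (interval 73.5% to 100%) and 13 of 13 JAK-STAT genes (75.3% to 100%) had a region. Both intervals include the 81.2% of all protein-coding genes, and in the CpG bins of the lists' median ratios 98.0% and 98.1% of all protein-coding genes had one. The highest folds in the NF-kB list were 13.3 at REL, 12.6 at NFKBIB and 10.3 at CHUK. In the JAK-STAT list STAT2 had a fold of 15.1 and STAT3 had 14.5. The median ratio of observed to expected CpG was 0.228 at the members' starts, against 0.166 for chemokine receptors, 0.370 for interleukin receptors, 0.802 for the NF-kB list and 0.753 for the JAK-STAT list. Chemokine genes whose symbols fall outside the naming rule had a region in 3 of 6 cases, with folds of 11.03 at PF4V1, 9.53 at CX3CL1 and 2.28 at PF4 and none at PPBP, XCL1 and XCL2. The IL1 family genes outside it, IL1RN, IL1F10, IL36G and IL36RN, had none.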

How the data were processed

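ATAC-seq of H1 cells was used through 1 peak list that both samples share. Per the submitters' processing notes the build was GRCh38; aligner, peak caller and settings: not given in the sources used here. Units were read from the narrowPeak layout: the deposited fold is a ratio over a background not described, and the deposited −log10 p is the authors' own. Another threshold or smoothing at that step would change which weak regions are listed and where their summits fall. The list gives no counts, so library depth was not analysed here.

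Rows of equal coordinates were merged to 1 region. GENCODE release 44 and the hg38 sequence were used, with Python 3.11.15, pandas 2.3.3, NumPy 2.4.6, SciPy 1.17.1 and pysam 0.24.0. A region was at a gene where a summit lay within 1000 bp of any annotated transcript start; other regions had a summit within 50 kb of the gene. All 20015 protein-coding genes outside the mitochondrial genome were processed alike, with a copy shared by X and Y counted once. The counting was tested on simulated data. The members and lists were chosen with earlier results of these data known. Every member is named, with full values for the 20 with the highest fold, the genes at the limit and in each other list the 3 highest and the first 3 in alphabetical order without a region, apart from a few genes not reported here; the strongest neighbouring regions of IL2, IL26, CXCL8, CXCL11 and RDM1 and some lower members were added after their values were seen.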

Additional observations from a re-analysis of the deposited data

How the results depend on the processing

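The number of members with a region at a start was 31 and lay between 23 and 35 under the other definitions and thresholds, a smaller share in each setting than that of all protein-coding genes, which lay between 70.6% and 83.7%. Counting from the canonical start alone gave 24 (without CCL27, CCL28, IL5, IL13, IL16, IL21 and IL34), and a 2 kb window gave 35 (with CCL1, CCL25, CCL26 and IL27). Chosen after seeing the data, leaving out members that share the region with another coding start gave 27, and leaving out CCL15-CCL14, CCL3L3 and CCL4L2 gave 30. Of 160 alternatives, 134 stayed within 1.5 times the value reported and 26 did not; none of the causes was tested beyond what each setting changes by construction.

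With regions at or above the median −log10 p, the chemokine receptor count was 5, the median number of other regions 3 (4 for all protein-coding genes), and the rate per 100 kb 5.07 for IL10 to IL24, 1.44 for CCL2 to CCL1, 1.13 for CCL5 to CCL4L2, 3.49 for CXCL8 to CXCL2, 3.57 for CXCL9 to CXCL11 and 3.74 for IL3 to IL4, against 2.60 over the whole list. With regions at or above the median fold, CCL genes numbered 3 and chemokine receptors 5. The median number of other regions was 3 within 20 kb and 11 within 100 kb, against 4 and 15 for all protein-coding genes, and 5 for both from the canonical start. The rate was 5.13 for IL10 to IL24 with no flank, 4.22 for CCL2 to CCL1 with 100 kb on either side, and 3.32 for IL5 to IL4 with members less than 250 kb apart.

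No paired analysis was possible because both samples share 1 peak list and form 1 group, and no replicate was left out. Without depth or values per sample, a missing region cannot be told apart from one below the caller's threshold, whose lowest fold in the list was 1.40. How reads of near-identical copies (CXCL1, CXCL2 and CXCL3, CCL3 and CCL3L3, CCL4 and CCL4L2) were assigned was not analysed here.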
